A study of Mus musculus with 10 samples.

Results

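The 5 mouse genes named Kmt2a, Kmt2b, Kmt2c, Kmt2d and Kmt2e encode large proteins of the mixed-lineage leukemia family of histone methyltransferases, and their promoters and gene bodies were examined in 6 ChIP-seq peak lists. They are 5 of the 55450 genes of the GENCODE M21 basic annotation, of which 21951 are protein-coding. The family was chosen by a Qki-5 value, since Kmt2a has the strongest peak of the Qk-/- Qki-5 list, so the Qki-5 values of all 5 genes are a description and support nothing. A promoter here is the region within 2 kb of any annotated transcription start site (TSS), and a peak belongs to every promoter that it overlaps by at least 1 bp.

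The lists come from differentiated oligodendrocytes, WT or Qk-/-, with 1 library for each antibody and genotype, so no difference between genotypes can be set against a spread between replicates. Neural stem cells (NSCs) were taken from whole brains of P1 pups carrying Nestin-CreERT2;Qk L/L, and the labels give the strain as FvB/C57BL6 hybrid, whereas the study's text calls its mice pure C57BL/6J. This is a tamoxifen-inducible Cre driven by the Nestin promoter, with loxP sites in Qk. 4-hydroxytamoxifen was given in culture to delete Qk, and the cells of both genotypes were then differentiated with thyroid hormone. Cells at passage 7 gave the Qki-5 and Pol II libraries, with 1 input for both in each genotype, and cells at passage 8 gave the Srebp2 libraries and separate inputs. Qki-5 is a nuclear form of Qki, a protein that binds RNA, Pol II is RNA polymerase II, and Srebp2 is the transcription factor of sterol synthesis genes. The labels call the cells oligodendrocytes. Of the oligodendrocyte marker genes, Cnp, Olig1 and Olig2 had a Pol II promoter peak in both genotypes, and Mbp, Mag, Mog, Myrf, Sox10 and Mobp had none in either. All 4 NSC markers and 3 of 4 astrocyte markers had one in both genotypes, 2 of 2 precursor markers in WT and 1 of 2 in Qk-/- cells, 1 of 4 neuronal markers in WT and 0 of 4 in Qk-/- cells, and 0 of 4 microglial markers in either. What part this mixture of markers has in the values below was not tested.

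The deposited WT lists of Qki-5 and Srebp2 hold fewer peaks than the study's text gives for these antibodies, and the reason is not given in the sources used here. Every rank, share and absent peak below refers to the lists as deposited.

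Kmt2 proteins work in COMPASS complexes, which methylate lysine 4 of histone H3 (H3K4), a mark of active promoters and enhancers. Kmt2a and Kmt2b act mainly at promoters and bind menin, and Kmt2c and Kmt2d place the single methyl group that marks enhancers. Kmt2e is a distant relative that binds methylated H3K4 and has little or no methyltransferase activity of its own. The methyltransferases of the family depend on a common core of Wdr5, Rbbp5, Ash2l and Dpy30. Mutations in the human counterparts cause neurodevelopmental syndromes, and KMT2A is rearranged in leukemias.

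In the GENCODE annotation Kmt2a lies on chr9:44803355-44881296 (minus strand), Kmt2b on chr7:30568858-30588726 (minus), Kmt2c on chr5:25271798-25498783 (minus), Kmt2d on chr15:98831669-98871204 (minus) and Kmt2e on chr5:23434441-23504235 (plus). They span 77.9, 19.9, 227.0, 39.5 and 69.8 kb, with up to 36, 37, 59, 55 and 27 exons.

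The Qki-5 summits at the promoters lay upstream of the GENCODE start sites of the genes. The sequence around the Kmt2a summit is shown because this is the site with a Qki-5 peak in both genotypes. Kmt2c, Kmt2d and Kmt2e stand beside it as sites with a peak in WT cells only. A part of the Kmt2a site inside the gene is given as a contrast. That part lies in an intron of Kmt2a but over a RefSeq exon of the noncoding gene Gm39326, which also has an exon over the upstream Kmt2a run. The sequences are GRCm38.p6 (mm10) reference bases from RefSeq, 5′ to 3′ on the strand of the gene. Capitals mark matches to GGGCGG, the letters of the GC box.
Kmt2a, chr9:44881403-44881603, minus strand: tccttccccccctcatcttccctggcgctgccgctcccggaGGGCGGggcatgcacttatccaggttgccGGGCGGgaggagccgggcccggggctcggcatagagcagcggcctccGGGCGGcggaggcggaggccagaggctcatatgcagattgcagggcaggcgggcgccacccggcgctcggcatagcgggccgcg
Kmt2c, chr5:25499776-25499876, minus strand: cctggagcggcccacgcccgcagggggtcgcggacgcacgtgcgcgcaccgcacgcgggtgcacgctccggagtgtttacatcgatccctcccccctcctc
Kmt2d, chr15:98872128-98872156, minus strand: agtggggttccccaggcaaaagggccccc
Kmt2e, chr5:23433103-23433131, plus strand: cagcgccatcttgccctgacgcagttaca
Kmt2a intron, chr9:44875546-44875606, minus strand: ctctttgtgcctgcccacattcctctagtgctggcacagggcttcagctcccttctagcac
The WT summit is base 101 of the Kmt2a run and the Qk-/- summit is base 123 of it. The Kmt2a run carries 3 matches to GGGCGG, at bases 42, 71 and 118. In windows of 201 bases around the summit, 36.6% of the 7533 WT Qki-5 windows held at least 1 such match on either strand and 7.16% held 3 or more. The window around the Qk-/- summit of Kmt2a held 4, where 27.3% of the 425 Qk-/- windows held at least 1 and 4.24% held 3 or more. The full window at the Kmt2d promoter held 1 match, outside the bases shown, and those of Kmt2c and Kmt2e held none.

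The Kmt2a window was 74.6% G or C with 22 CpG dinucleotides, more GC than 86.0% of all WT Qki-5 windows, whose median was 60.2%. Kmt2c (73.6%, 26 CpG) was above 83.3% of them, Kmt2e (68.2%, 19 CpG) above 68.6% and Kmt2d (63.2%, 13 CpG) above 56.3%. The intronic Kmt2a window had 49.3% and 2 CpG. The letters ACTAAC and ACTAAT, the DNA form of the core of the Qki RNA element, were searched on both strands and were absent from every window of the 4 genes with a Qki-5 peak, against 2.87% and 2.56% of all WT windows. CCAAT and AACAAT were also absent, against 19.4% and 6.03%. Absence of these letters says only that they are not in these windows.

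In WT cells 4 of the 5 Kmt2 promoters had a Qki-5 peak, where 10.2% of all genes and 19.4% of protein-coding genes had one. The share was 34.6% among protein-coding genes with a WT Pol II promoter peak, which all 5 have. It was 43.4% among those that also have a noncoding start upstream on the opposite strand, as all 5 do. The count includes Kmt2a, through which the family was chosen. The Kmt2a peak was by far the strongest, Kmt2e was in the upper part of the list, and Kmt2d and Kmt2c were moderate. At Kmt2a a peak of 28.8-fold lay over nearly the same interval in Qk-/- cells. How much of the WT Kmt2a peak is Qki-5 therefore cannot be told from the lists. Kmt2b had no Qki-5 peak. The Kmt2a peak had a fold enrichment over input of 27.2 and was ranked 3 of 7539 peaks, with its summit 207 bp upstream of the TSS and a width of 735 bp (chr9:44881033-44881767). Kmt2e reached 9.13-fold at rank 347 (chr5:23432598-23434707), Kmt2d 7.10-fold at rank 1187 (chr15:98871841-98872440) and Kmt2c 6.86-fold at rank 1396 (chr5:25499276-25499951). As within-list percentiles, the share of peaks with a lower or equal fold, these were 99.97 for Kmt2a, 95.4 for Kmt2e, 84.3 for Kmt2d and 81.5 for Kmt2c. The median over 4258 protein-coding genes with a WT Qki-5 promoter peak was 45.2.

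**Figure D1:**
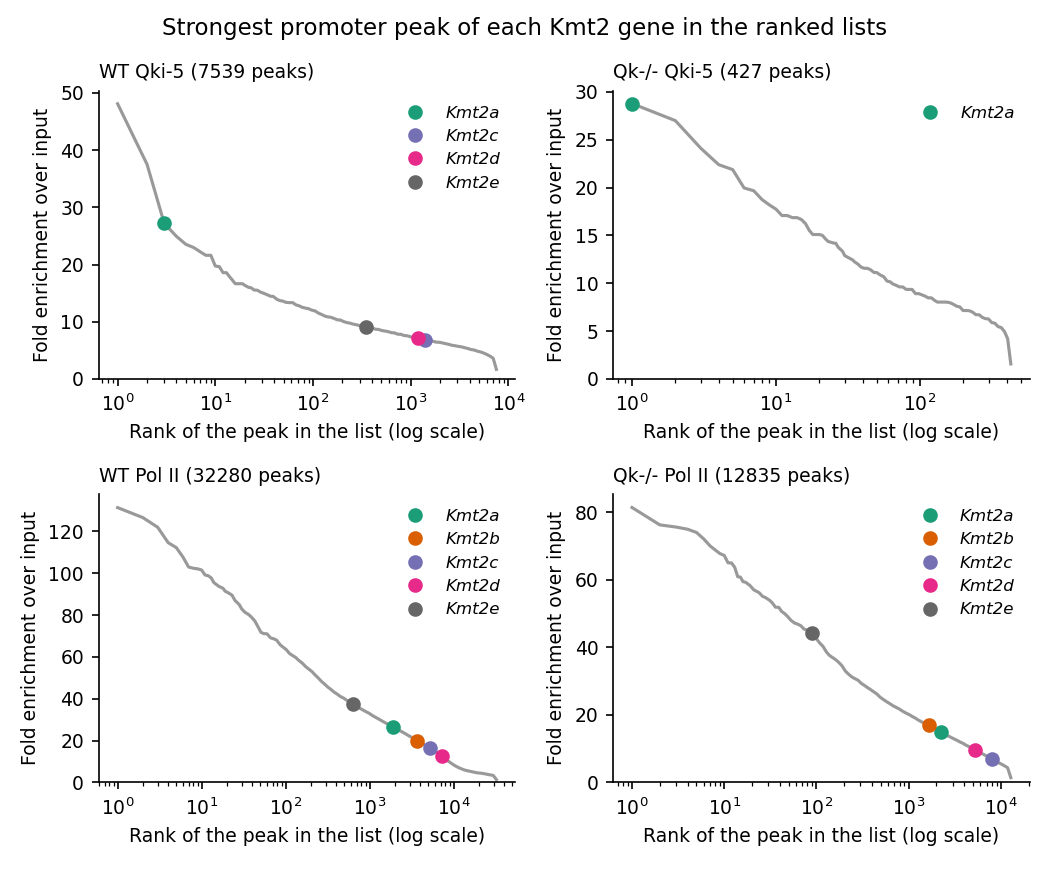
Fold enrichment over input (y axis) against the rank of each peak in its list (x axis, log scale) for the Qki-5 and Pol II lists of both genotypes, as grey lines. Points are the strongest promoter peak of each Kmt2 gene. Kmt2a had rank 3 of 7539 in WT Qki-5 and rank 1 of 427 in Qk-/- Qki-5, and Kmt2e led the family in both Pol II lists.

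The Kmt2b promoter lay in a stretch without a WT Qki-5 peak, and the usual length of such stretches was not measured. The nearest WT Qki-5 peak, 5.34-fold near Lrfn3, was 225.6 kb away on one side of its TSS, and the nearest on the other side was 368.1 kb away. In this interval of 593.7 kb on chromosome 7 there were 38 protein-coding genes, of which 19 had a WT Pol II promoter peak. Kmt2b was thus 1 of 19 Pol II-bound genes of the interval. The interval was drawn between WT Qki-5 peaks, so the lack of one inside it is given by construction and is not particular to Kmt2b. Kmt2b had no Qki-5 peak in Qk-/- cells either.

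In Qk-/- cells 1 of the 5 promoters, Kmt2a, had a Qki-5 peak, against 0.503% of all genes and 0.87% of protein-coding genes. This peak chose the family. It was 28.8-fold, the first of 427 peaks, and the second, nearest to Cdk6, was 27.0-fold, so that the lead was 1.07-fold. Cdk6 encodes a cell cycle kinase. The next in order were nearest to Igf2bp3 (24.1-fold), which encodes an RNA-binding protein, Nr5a1 (22.4-fold), a nuclear receptor gene, and again Igf2bp3 (21.9-fold). Ranked by −log10 q in place of fold, the Kmt2a peak also had rank 1 (97.0), and in WT cells it also had rank 3 (90.6).

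The Kmt2a peaks of both genotypes were nearly the same interval. They shared 665 bp, which is 97.8% of the Qk-/- peak and 90.5% of the WT peak, and their summits were 22 bp apart, 207 and 185 bp upstream of the TSS. The Qki-5 list had 7539 peaks in WT and 427 in Qk-/- cells. A Qk-/- peak overlapped the WT promoter peak at 4.16% of the 4258 protein-coding genes with one. Peaks of Kmt2c, Kmt2d and Kmt2e had no counterpart, and their nearest Qk-/- Qki-5 peaks were 5897, 2413 and 7893 kb from the TSS. What the antibody recovered at Kmt2a in Qk-/- cells cannot be read from the lists, and the deletion of Qk itself was not tested by them. The Qk promoter had a WT Qki-5 peak of 8.13-fold and none in Qk-/- cells. Its Pol II peaks were at percentile 81.4 of the WT list (14.9-fold) and 58.0 of the Qk-/- list (9.48-fold). The median Pol II difference over protein-coding genes with a peak in both lists was −20.3 percentage points.

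Of the 5 strongest Qk-/- Qki-5 peaks, the Kmt2a peak alone overlapped a Qk-/- Pol II peak, as 132 of all 427 (30.9%) did. In the WT list the first and second peaks, nearest to Igf2bp3 (48.1-fold) and Tlx2 (37.5-fold), overlapped no Pol II peak, and Kmt2a at rank 3 did. Over protein-coding genes with a WT Qki-5 promoter peak, 90.6% of the strongest such peaks lay inside a WT Pol II peak. Kmt2a was thus not unusual among promoter peaks in this. The overlaps in both lists use Qki-5 values and are a description.

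All 5 Kmt2 promoters had a Pol II peak in both genotypes. In WT cells 28.4% of all genes and 54.1% of protein-coding genes had one, and in Qk-/- cells 23.0% and 46.5%. In WT cells Kmt2e was highest with 37.3-fold (rank 634 of 32280), followed by Kmt2a with 26.5-fold (rank 1909), Kmt2b with 19.97-fold (rank 3708), Kmt2c with 16.3-fold (rank 5288) and Kmt2d with 12.6-fold (rank 7215). In Qk-/- cells Kmt2e was again highest with 44.1-fold (rank 89 of 12835), followed by Kmt2b with 16.9-fold (rank 1655), Kmt2a with 15.1-fold (rank 2218), Kmt2d with 9.73-fold (rank 5206) and Kmt2c with 6.89-fold (rank 7979). With 1 library each, no neighbors in these orders can be told apart from a spread. Kmt2a had a weak second promoter peak in WT cells (4.51-fold), and Kmt2b one in Qk-/- cells (4.90-fold, centered 510 bp upstream).

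Between the genotypes the place of each gene depended on what it was ranked among. In percentiles of the whole list, Kmt2e went from 98.0 in WT to 99.3 in Qk-/- cells, Kmt2b from 88.5 to 87.1, Kmt2a from 94.1 to 82.7, Kmt2d from 77.7 to 59.4 and Kmt2c from 83.6 to 37.8. The Qk-/- list is shorter, and the percentile in it was lower for most genes, with a median difference of −20.3 percentage points over the 10177 protein-coding genes with a promoter peak in both lists. The same 10177 genes were therefore also ranked among themselves in each library, a choice made after seeing the data.

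Among these genes Kmt2c went from percentile 44.5 in WT to 21.8 in Qk-/- cells, a difference of −22.7 points, and 16.6% of the genes had a lower difference. Kmt2a went from 79.4 to 76.5 (−2.89 points) and Kmt2e from 93.2 to 99.1 (5.91 points). Kmt2b went from 60.6 to 82.5 (21.8 points) and Kmt2d from 27.0 to 46.0 (19.0 points), so for these genes the sign was opposite to that in the whole lists. The quartiles over all 10177 genes were −14.4 and 15.1, with Kmt2c below the lower one, Kmt2b and Kmt2d above the upper one, and Kmt2a and Kmt2e between. Kmt2c had the most negative difference of the family in both rankings.

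Every strongest Qk-/- Pol II peak of the 5 genes lay wholly inside the WT one and was narrower, from 774 against 1982 bp at Kmt2b to 4066 against 6378 bp at Kmt2e. The same held for 87.1% of the 10177 genes. Over all protein-coding genes with a WT Pol II promoter peak, 86.0% had that peak overlapped in the Qk-/- list.

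**Figure D2:**
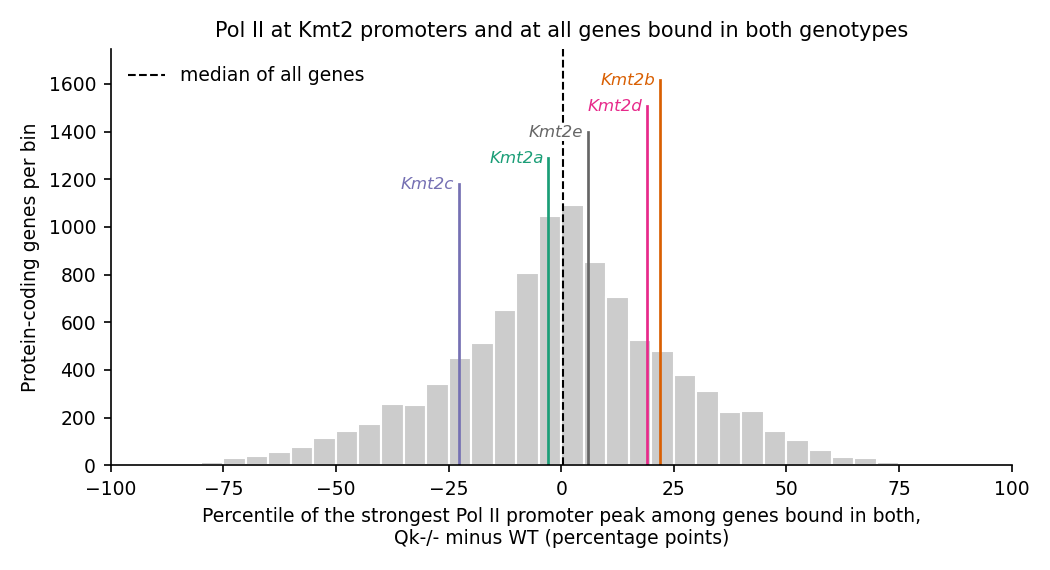
Number of protein-coding genes (y axis) by the difference, Qk-/- minus WT in percentage points (x axis, bins of 5), in the percentile of their strongest Pol II promoter peak among the 10177 genes bound in both libraries. The dashed line is the median (0.423) and colored lines are the Kmt2 genes, from −22.7 (Kmt2c) to 21.8 (Kmt2b).

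At the 4 promoters with peaks of both antibodies, each Qki-5 peak lay entirely inside a WT Pol II peak, as did the strongest Qki-5 peak of 90.6% of the 4258 protein-coding genes with one. Of these genes 96.5% had a WT Pol II promoter peak, and of genes with a WT Pol II promoter peak 34.6% had a Qki-5 peak. The summits of the strongest peaks of each protein were 299 bp apart at Kmt2a, 347 bp at Kmt2c, 673 bp at Kmt2d and 680 bp at Kmt2e. At Kmt2a the Qki-5 summit was closer to the gene than the Pol II summit, which was 506 bp upstream, and at Kmt2c, Kmt2d and Kmt2e it was farther upstream than the Pol II summit. In Qk-/- cells the Kmt2a summits were 335 bp apart.

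All 4 WT Qki-5 summits of the family lay upstream of the GENCODE TSS, at 207 bp for Kmt2a, 938 bp for Kmt2d, 1081 bp for Kmt2c and 1324 bp for Kmt2e. The Kmt2a and Kmt2c summits fell in introns of the noncoding genes AC061963.1 and 4831440E17Rik, the Kmt2e summit in an exon of 5031425E22Rik, and the Kmt2d summit between genes, all in the GENCODE basic annotation. RefSeq places an exon of 4831440E17Rik over the printed Kmt2c run, an exon of Kmt2d over the Kmt2d run, and exons of Kmt2e and 5031425E22Rik over the Kmt2e run. At Kmt2d and Kmt2e the upstream position thus holds for the GENCODE starts and may not hold for RefSeq transcripts. Over the 4258 protein-coding genes with a WT Qki-5 promoter peak, 38.8% of summits were upstream and the median distance was 160 bp. Each of the 5 genes has a noncoding transcript that starts upstream on the opposite strand. The distances were 454 bp at Kmt2a (AC061963.1), 654 bp at Kmt2b (Mir3569), 322 bp at Kmt2c (4831440E17Rik), 1440 bp at Kmt2d (5730414N17Rik) and 522 bp at Kmt2e (5031425E22Rik). Such a noncoding start occurred at 9.45% of the 11879 protein-coding genes with a WT Pol II promoter peak. A Qki-5 peak was present at 43.4% of those with one and at 33.7% of those without. The Qki-5 summits of Kmt2c and Kmt2e were closer to the noncoding start than to the gene's own, lying 759 and 192 bp from it, the Kmt2d summit was 471 bp from the start of another noncoding gene, Gm49437, and only the Kmt2a summit was nearest to its own TSS. When each peak is given to the nearest TSS alone, the WT Qki-5 count falls from 4 to 1 (Kmt2a), the WT Pol II count from 5 to 3 and the Qk-/- Pol II count from 5 to 2. Kmt2a stayed in the WT Pol II count only through its second peak of 4.51-fold. Its strongest Pol II summits lay 52 bp (WT) and 66 bp (Qk-/-) from the AC061963.1 start. The Kmt2e summits lay 122 and 108 bp from the start of 5031425E22Rik, and the Kmt2c summits 412 and 453 bp from that of 4831440E17Rik. Only Kmt2b and Kmt2d had their strongest Pol II summits nearest to their own TSS. The lists therefore do not tell the gene from its neighbor at these shared promoters.

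**Figure D3:**
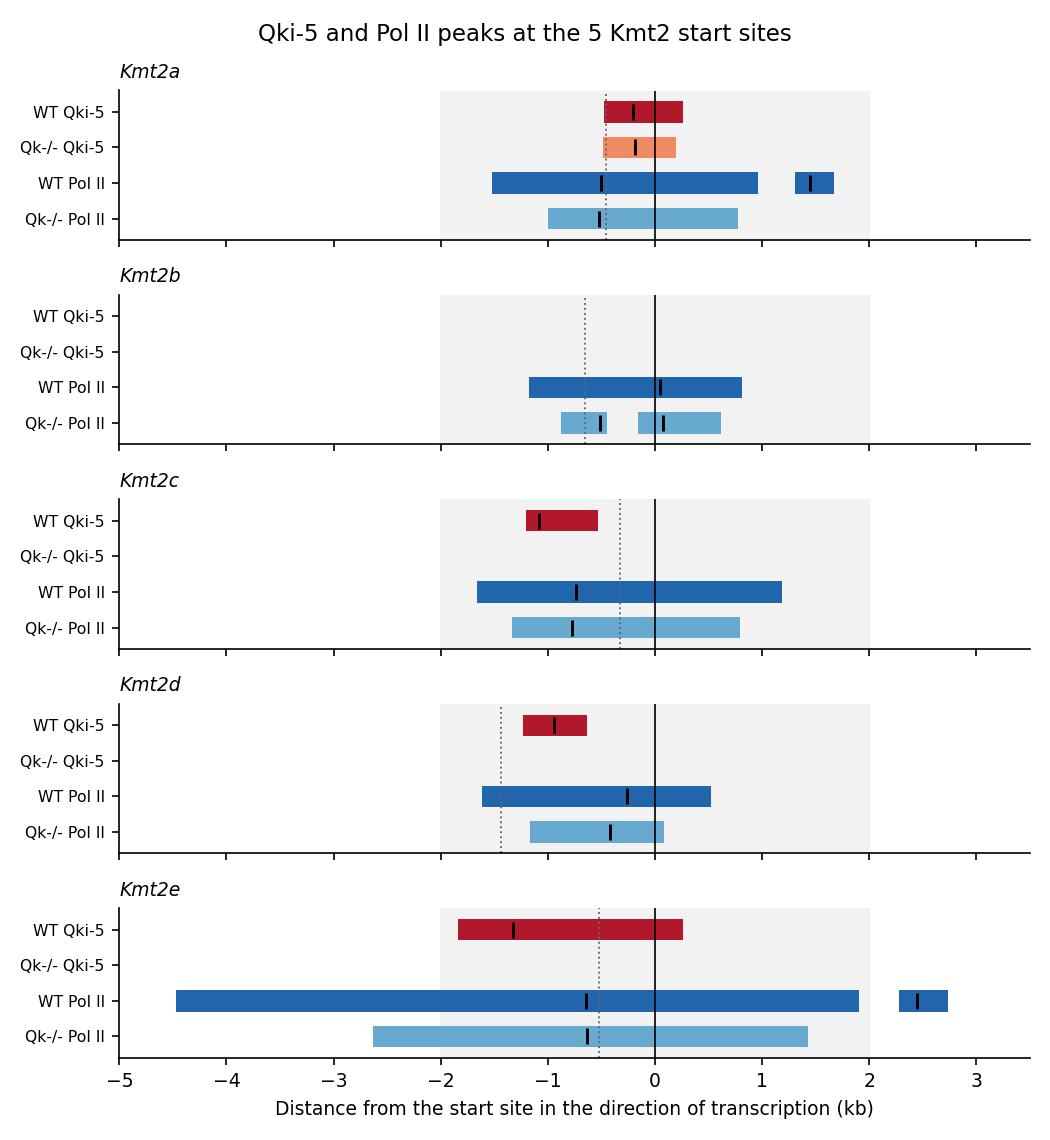
Qki-5 and Pol II peaks (bars) and their summits (ticks) along the distance from the start site of each Kmt2 gene in kb, negative values being upstream (x axis), with 1 row for each list. Grey shading is the promoter, the solid line the TSS and the dotted line the nearest noncoding start on the opposite strand. Qki-5 bars lie inside WT Pol II bars at Kmt2a, Kmt2c, Kmt2d and Kmt2e, and Kmt2b has none.

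Inside the genes, beyond the promoters, WT Pol II peaks were most numerous in Kmt2e. Its body of 67.8 kb held 17 peaks, and 13.0% of it was covered by these and by the edge of a peak with its summit in Srpk2, the convergent neighbor. Of the 17, 14 were more than 50 kb from the TSS, and all were weak, from 3.28- to 5.34-fold. Kmt2b had 2 peaks over 7.20% of its body, Kmt2a 2 over 0.812%, Kmt2d 1, and Kmt2c, with a body of 224.9 kb, had none. A peak that reaches into the end of Kmt2d has its summit in Prkag1, the neighboring gene for a subunit of AMP-activated protein kinase, and with it 2.68% of the Kmt2d body was covered. Of 11145 protein-coding genes with a WT Pol II promoter peak and a body of at least 1000 bp, 36.5% had a body peak in WT cells.

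In Qk-/- cells Kmt2e had 2 body peaks, over 1.22% of the body, 66.0 and 69.2 kb from the TSS, the latter with its summit in exons of both Kmt2e and Srpk2. The others had none, beyond the 0.575% of Kmt2d that the Prkag1 peak covered, and 10.5% of the same genes had a body peak. The mean share of the body covered over all these genes was 6.003% in WT and 0.821% in Qk-/- cells, and the median was 0 in both. In WT cells the covered share of Kmt2a was above that of 66.2% of the genes, of Kmt2d above 75.4%, of Kmt2b above 83.8% and of Kmt2e above 88.7%. A body peak of Qki-5 occurred in 9.56% of them, and in the family only in Kmt2a, where an intronic WT peak of 5.06-fold (chr9:44875523-44875747), 5.72 kb into the gene, overlapped an intronic WT Pol II peak of 6.52-fold (chr9:44875480-44875847). Neither had a counterpart in Qk-/- cells, as was the case for most WT peaks. Of all WT Qki-5 peaks 4.06% overlapped a Qk-/- Qki-5 peak, and of all WT Pol II peaks 33.8% overlapped a Qk-/- Pol II peak. The upstream site of the same gene had a counterpart for both antibodies. A WT Qki-5 peak of 3.49-fold with its summit in Prkag1 also reached 9 bp into the Kmt2d body, and its window held 3 matches to GGGCGG.

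**Figure D4:**
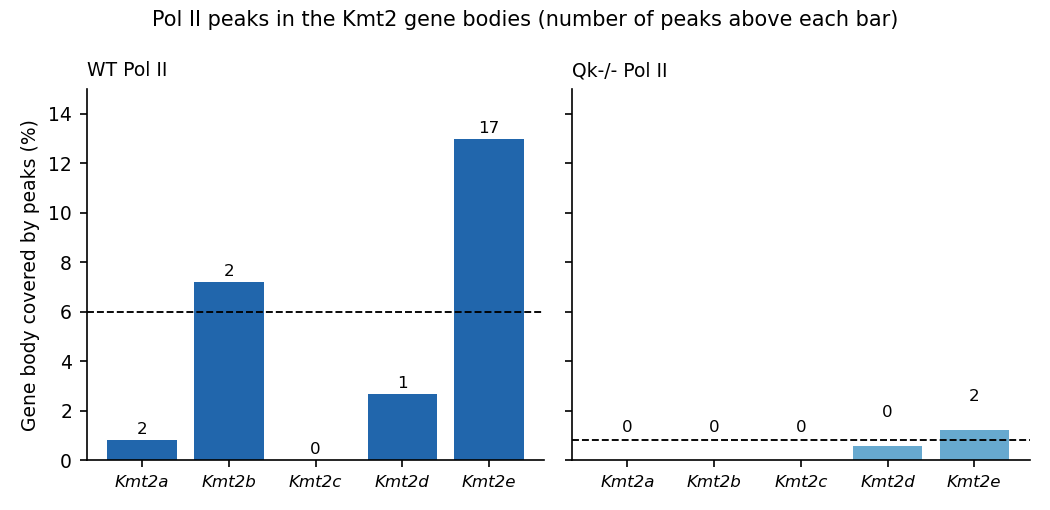
Percent of the gene body outside promoters covered by Pol II peaks (y axis) for each Kmt2 gene in WT (left) and Qk-/- (right), with the number of peaks whose summit lies in the body above each bar and the mean over 11145 genes as a dashed line (6.003% and 0.821%, where the medians are 0). Kmt2e goes from 17 peaks in WT to 2 in Qk-/-.

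Srebp2 was not found at any of the 5 genes in either genotype. The deposited lists are short, with 77 peaks in WT and 28 in Qk-/- cells, and 0.15% and 0.0577% of all genes and 0.292% and 0.118% of protein-coding genes had a promoter peak. The nearest WT Srebp2 peaks were 2572 kb from Kmt2c and 2617 kb from Kmt2a, the latter nearest to Sc5d, a sterol synthesis gene. Without read totals, it cannot be said how weak a peak these libraries would have shown.

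Genes of related function give the setting of these counts, with no test of the lists. All 40 of these genes had a Pol II promoter peak in both genotypes, against 54.1% of protein-coding genes in WT and 46.5% in Qk-/- cells. A WT Qki-5 promoter peak was present at 19.4% of protein-coding genes and at 34.6% of those with a WT Pol II promoter peak. A Qk-/- Qki-5 promoter peak was present at 0.87% of protein-coding genes. Setd1a and Setd1b, the remaining H3K4 methyltransferases of the COMPASS type, both had a WT Qki-5 peak, but of 4.68- and 4.61-fold (median percentile 30.4), and none in Qk-/- cells. Of the 4 core subunits Wdr5, Rbbp5, Ash2l and Dpy30, none had a Qki-5 peak in either genotype. Of 4 subunits of Kmt2a and Kmt2b complexes, 2 had a WT Qki-5 peak, Hcfc2 (6.44-fold) and Psip1 (5.11-fold), the chromatin reader that tethers menin complexes, and Men1 and Hcfc1 did not (median percentile 60.2). Of 4 subunits of Kmt2c and Kmt2d complexes, Paxip1 (6.86-fold) and the H3K27 demethylase Kdm6a (5.48-fold) had one (median 67.5). Of 4 Setd1 complex subunits, Cxxc1, which binds unmethylated CpG, had one of 8.30-fold at percentile 92.6.

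Among the enzymes that remove methyl groups from H3K4, 4 of 5 had a WT Qki-5 peak, between 4.68-fold (Kdm5a) and 6.02-fold (Kdm1a), and Kdm1b had none (median percentile 56.5). Of 17 methyltransferases of other histone lysines, 9 had a WT Qki-5 peak with a median percentile of 33.1. The highest of these was Kmt5b, which methylates lysine 20 of histone H4, with 10.5-fold at rank 171. Kmt5b and Kmt2a were the only genes of all these lists with a Qki-5 promoter peak in Qk-/- cells, that of Kmt5b being 8.35-fold at rank 125 of 427. The WT percentile of Kmt2a was above that of every other gene in the lists and the percentile of Kmt2e above all but Kmt2a and Kmt5b. The medians beside them were 45.2 over protein-coding genes in WT Qki-5, and 89.8 over the 4 Kmt2 genes with a peak, whose family was chosen by this antibody's signal.

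**Figure D5:**
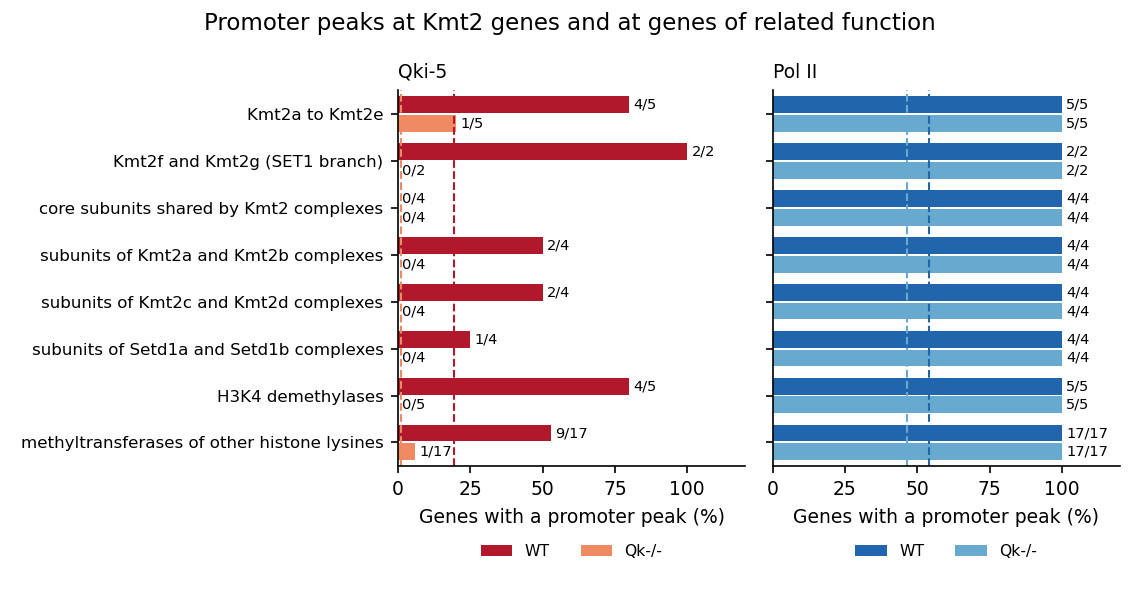
Percent of the genes of each list with a promoter peak (x axis), for Qki-5 (left) and Pol II (right), in WT and Qk-/- cells, with the counts at the bars and dashed lines at the share of all protein-coding genes. Kmt2 genes reached 4 of 5 in WT Qki-5 and 1 of 5 in Qk-/- Qki-5, and every list was complete for Pol II.

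The genes whose pattern was most like that of each Kmt2 gene were taken as the protein-coding genes at the smallest Euclidean distance over the percentiles of the 6 lists, with 0 where there was no peak. Kmt2b, with Pol II alone, had many, with 252 genes within a distance of 5, led by Otud3, Prkaca and Cry2. Kmt2e had 28 within 5, led by Rpl18, Sphk2 and Eif4a2, Kmt2c had 6, led by Slc33a1, Dnajc7 and Nkiras2, and Kmt2d had 5, led by Zfp629, Tmem192 and Elmsan1. Kmt2a had none. The distance includes the Qki-5 percentiles, and Kmt2a was chosen for its first place in the Qk-/- Qki-5 list, so this lack follows in part from the choice and is a description. The gene nearest to Kmt2a was Amdhd2 at 12.0, with Qki-5 peaks of 12.3-fold in WT and 10.9-fold in Qk-/- cells, followed by Adgrl1 at 12.6 and Lamp1 at 13.4. Rpl18 and Sphk2 had the same values in every list, as did Dnajc7 and Nkiras2, so each pair is 1 pattern.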

How the data were processed

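Peak lists of 6 ChIP-seq libraries were used, and the inputs entered only through them. The methods state that the authors mapped reads trimmed by Trim Galore to mm10 with Bowtie2, discarded duplicates through SAMtools, and called peaks of each library with MACS2 at a q-value threshold of 0.05, using its input as control. In the submitters' processing notes the aligner is Bowtie 1.2.2 and the caller MACS2 2.1.2. The deposited fold enrichment is a ratio, summit pileup over local background. The −log10 p and −log10 q values deposited by the authors come from the MACS2 test, and the deposited score is 10 times the −log10 q. No file gives read totals, so depth is unknown. A fold was ranked only within its list, and folds of different lists printed together are not a measure of change.

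The tables were handled in Python 3.11.15 (pandas 2.3.3, numpy 2.4.6), the genome in pysam 0.24.0 and the plots in matplotlib 3.10.9. Promoters were 2000 bp on either side of the 77258 TSSs of GENCODE M21 basic, on the same build. Of several promoter peaks the strongest counted. Overlaps were tested on simulated data. No test was made, since each antibody and genotype has 1 library. Named genes are the 5 members, the genes of the lists of related function, genes sharing a member's peak, the 3 most alike genes of each member, the genes of the strongest Qki-5 peaks and Qk. Lrfn3, Sc5d, Prkag1 and Tlx2 were named after their values were seen. The members and lists were chosen with earlier results of these data known. Alternatives were windows of 1 and 2.5 kb, a q-value under 0.01, a fold of at least 5, summits in the promoter, the nearest TSS only, other background genes and ranks by −log10 q. RefSeq transcript starts and the ranking among genes bound in both Pol II lists were added after seeing the data. Of the marker genes, 1 is not reported here.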

Additional observations from a re-analysis of the deposited data

How the results depend on the processing

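Of 48 recomputed counts of Kmt2 genes, 44 were within 1.5 times the value reported. Among the 44 are all counts for Srebp2, which were 0 in every setting and which stricter settings could not have raised. The counts outside this range came from giving each peak to the nearest TSS alone. The WT Qki-5 count was then 1, the WT Pol II count 3, the Qk-/- Pol II count 2, and the number of genes whose WT Pol II peak overlapped a Qk-/- Pol II peak 2, because noncoding starts nearby took the peaks. Ranking by −log10 q moved 3 ranks by over 1.5 times, all in WT Pol II: Kmt2a from 1909 to 2980, Kmt2b from 3708 to 2392 and Kmt2e from 634 to 223. Kmt2a kept rank 3 in WT and rank 1 in Qk-/- Qki-5. Ranked among the 10177 genes bound in both Pol II lists, added after seeing the data, the Qk-/- minus WT difference was 21.8 for Kmt2b and 19.0 for Kmt2d, in place of −1.40 and −18.2 in the whole lists, and −2.89, −22.7 and 5.91 for Kmt2a, Kmt2c and Kmt2e in place of −11.4, −45.8 and 1.28. With a fold of at least 5, 10.9% of protein-coding genes had a WT Qki-5 peak in place of 19.4%. Depth is unknown, so an absent peak sets no limit on binding, and no replicate could be left out.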
